A study of Arabidopsis thaliana with 48 samples.

Results

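The comparison is the change over 6 h in wild-type Arabidopsis thaliana seedlings that received only the solvent DMSO. It used the 3 libraries taken at 6 h against the 3 taken at 0 h, chosen by the genotype, agent and time in their labels, out of 48 libraries in the series. The seedlings were Col-0, grown whole in liquid medium for 7 days, and the wild type expressed the calcium reporter aequorin. The other arms received 5 µM of the quinone DMBQ (2,6-dimethoxy-1,4-benzoquinone), or were card1-2 mutants in the same aequorin background, and all were sampled at 0, 0.5, 1 and 6 h with 3 libraries a group. Plants grew under 16 h of light (50 µE) and 8 h of dark at 22 °C, with 0.25% sucrose, after 2 days of stratification. The labels do not give the hour at which sampling began. The passing of the day, time in DMSO, handling and time in culture cannot be told apart in this comparison. The labels do not say whether replicates were separate cultures, so the p-values measure the spread between these libraries, which may be technical.

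Plants keep time with a circadian clock in which transcription factors repress one another in a fixed order over the day. The MYB factors CCA1 and LHY are made around dawn and bind the evening element in promoters of genes that peak later, such as TOC1. The pseudo-response regulators PRR9, PRR7 and PRR5 follow one after another through the day and repress CCA1 and LHY in turn. Clock and light together set the daily rhythm of the nuclear genes for light-harvesting antenna proteins, of starch turnover and of nutrient assimilation, while touch and foreign chemicals induce other genes within minutes to hours.

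The 6 compared libraries held 4764682 to 10269835 gene counts each, and replicates of a group correlated across genes at 0.986 to 0.988 (Spearman). Levels are given as CPM (counts scaled to the library's size with TMM factors), and changes as log2 fold changes ± an SE. That SE is the size of the change divided by the square root of the test's F statistic. It is a derived value, rough for genes that fall to few counts. A gene was called at an adjusted p under 0.05, from edgeR's quasi-likelihood test with Benjamini-Hochberg adjustment over the 19839 genes tested. In a principal component analysis of the 12 wild-type DMSO libraries, component 1 (42.11% of the variance) placed the 6 h libraries at 55.4 to 56.0 and the 0 h libraries at −16.4 to −13.1. CARD1 (AT5G49760, TAIR10.1 chr5:20216332-20221382), the receptor kinase gene of the mutant, was at 92.2, 84.8 and 92.0 CPM at 0 h and 86.6, 79.7 and 99.8 CPM at 6 h in the wild type (log2 change −0.02 ± 0.09, adjusted p = 0.918). In card1 its level was 30.3 ± 1.07 CPM at 0 h and 31.2 ± 3.62 at 6 h (SD, n = 3).

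Over 6 h in DMSO, 6192 genes (31.2%) were called, 3032 higher (15.3%) and 3160 lower (15.9%). The counts given for gene lists below are to be read beside these shares of all genes. Most changes were small, with a median size among called genes of 0.525 log2 for rises and 0.545 for falls. Changes of at least 2-fold were called for 1130 genes (5.7%), 473 higher (2.38%) and 657 lower (3.31%). Falls outnumbered rises among the strongest changes, with 192 genes at least 4-fold lower and 50 at least 4-fold higher, and 34 at least 16-fold lower and 9 at least 16-fold higher. Of those 9, only ACD6, JMJD5 and RVE2 had a mean of at least 2 CPM over the 6 libraries and no overlap between groups. The 15 strongest falls that met these conditions were all at least 20.5-fold. The 6 h libraries did not overlap the 0 h libraries for 8950 genes (45.1%; 22.0% higher and 23.1% lower), among them 2866 of the genes called higher and 3026 of those called lower. The log2 change over all genes had a median of −0.0016 and a Spearman correlation of 0.1228 with transcript length across genes, and a fit corrected for length called 6324 genes.

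Morning clock genes fell as a group. Of 13 tested, 9 were lower, 2 higher and 2 not called, with a median log2 change of −2.77 against −0.0016 over all genes. CCA1 (AT2G46830, chr2:19245591-19248915), the dawn MYB repressor, stood at 43.3, 14.8 and 21.1 CPM at 0 h and at 2.19, 0.347 and 0.776 CPM at 6 h. All 6 h libraries lay below all 0 h libraries, which the rule that named CCA1 required, and replicate 1 was the highest at both times. The change was −4.71 ± 0.68 (adjusted p = 1.94e-06, edgeR's quasi-likelihood test), after means of 12.3 CPM at 0.5 h and 11.7 at 1 h. LHY, the partner of CCA1, went from 37.6, 8.72 and 15.6 to 1.99, 1.16 and 2.02 CPM (−3.54 ± 0.88, adjusted p = 0.00214). Its 0 h libraries were widely spread, and none reached down to the 6 h levels.

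Promoter sequences of the dawn genes are shown because a G-box (CACGTG, read on both strands, the same letters on each) lay within 500 bases before the annotated start of 7 of the 13 morning clock genes. Of those 7, 5 were lower, 1 was higher and 1 was not called. The motif occurs in 8.7% of 32834 promoters of that length and in 10.1% of the promoters of tested genes. The windows follow RefSeq's TAIR10.1 build on the gene's strand, with the motif in capitals. A match describes letters in the window and no more.
CCA1, chr2:19245378-19245423, plus strand: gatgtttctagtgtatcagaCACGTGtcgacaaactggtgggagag
LHY, chr1:37926-37971, minus strand: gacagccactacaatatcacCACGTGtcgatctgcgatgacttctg
PRR9, chr2:19232343-19232388, plus strand: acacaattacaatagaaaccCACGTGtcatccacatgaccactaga
PRR7, chr5:642206-642251, minus strand: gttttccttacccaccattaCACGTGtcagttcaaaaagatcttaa
RVE2, chr5:14753226-14753271, minus strand: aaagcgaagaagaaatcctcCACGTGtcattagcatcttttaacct

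PRR7, the pseudo-response regulator of the morning to midday, was at 250, 237 and 232 CPM at 0 h and 44.6, 21.8 and 18.3 CPM at 6 h (−3.13 ± 0.19, adjusted p = 4.14e-15). Its groups did not overlap. Mean levels of 217 CPM at 0.5 h and 258 CPM at 1 h lay near the 0 h range. PRR9, the earliest of that family, changed by −2.77 ± 0.53 (adjusted p = 7.84e-05) from 4.22, 2.84 and 3.76 to 1.19, 0.347 and 0.155 CPM. The LNK genes encode co-activators that work with the REVEILLE factors. LNK2 (AT3G54500) fell from 180, 101 and 147 to 19.9, 7.63 and 8.54 CPM (−3.64 ± 0.32, adjusted p = 1.44e-10). LNK1 (AT5G64170) fell by 3.14 and LNK3 (AT3G12320) by 4.16 on the log2 scale. EPR1, a MYB factor of the same family as CCA1, fell by 1.96 and RVE8, an activator of evening genes, by 1.65.

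RVE2 (AT5G37260, chr5:14751344-14753088), another member of the CCA1 family, moved the other way. It was at 7.88, 5.21 and 6.21 CPM at 0 h and 123, 128 and 139 CPM at 6 h, a 20.9-fold rise (log2 4.38 ± 0.2, adjusted p = 7.36e-19). Its means were 8.51 CPM at 0.5 h and 15.8 at 1 h, so that most of the rise lay between 1 and 6 h. LCL1, also of that family, was higher by 0.36 ± 0.12 (adjusted p = 0.0227), a call lost without 0 h replicate 2, 6 h replicate 1 or 6 h replicate 3, each of which leaves 1 morning clock gene called higher. RVE1, a factor known for linking the clock to auxin, had a change of −0.64 ± 0.3 that was not called (adjusted p = 0.097), and neither was AT5G52660.

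Genes of the afternoon and evening were mostly higher. Of 15 tested, 8 were higher, 3 lower and 4 not called, with a median log2 change of 0.37. JMJD5 (AT3G20810, chr3:7275645-7278420), a histone demethylase gene expressed in the evening, rose from 3.48, 3.41 and 4.48 to 100, 98.5 and 89.1 CPM. All 6 h libraries lay far above the 0 h libraries, a 25.4-fold rise (log2 4.67 ± 0.18, adjusted p = 1.26e-23). ELF4, a subunit of the evening complex that represses growth and clock genes at night, rose from 6.05, 7.01 and 10.3 to 36.4, 40.0 and 38.0 CPM (2.29 ± 0.15, adjusted p = 2.67e-16). BOA, a close relative of the evening complex subunit LUX, rose from 4.03, 4.83 and 3.76 to 26.7, 22.5 and 26.4 CPM (2.54 ± 0.18, adjusted p = 1.22e-14). The 6 h libraries of JMJD5, BOA and RVE2 overlapped none of those at 0 h, which the rule that named these genes required. ELF4 also had no overlap, as had 45.1% of all genes.

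TOC1, the evening repressor of CCA1 and LHY, lay between its 0 h and 6 h levels at 0.5 and 1 h. It stood at 76.8, 82.7 and 94.8 CPM at 0 h, had means of 113 and 152 CPM at 0.5 and 1 h, and was at 169, 170 and 166 CPM at 6 h (0.99 ± 0.13, adjusted p = 7.62e-08). PRR3, which stabilises TOC1, rose by 1.51 ± 0.16 (adjusted p = 1.64e-09) and ELF3, another evening complex subunit, by 0.63 ± 0.09 (adjusted p = 3.36e-07). GRP7, a clock-controlled RNA-binding protein that peaks in the evening, rose from 650, 869 and 775 to 2090, 2010 and 2060 CPM (1.43 ± 0.15, adjusted p = 2.62e-09). Its relative GRP8 (CCR1) rose by 0.37.

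The evening list did not move as a block. GI, a daytime gene that stabilises the photoreceptor ZTL, was at 111, 126 and 138 CPM at 0 h, had a mean of 153 CPM at 1 h, and was at 24.5, 22.4 and 16.0 CPM at 6 h (−2.58 ± 0.16, adjusted p = 9.1e-16). PRR5, which follows PRR7 in the day, was at 68.6, 94.9 and 106 CPM at 0 h and 30.0, 18.5 and 21.1 CPM at 6 h (−1.99 ± 0.23, adjusted p = 3.73e-08), with a mean of 117 CPM at 1 h. CHE (listed as TCP11), a repressor of CCA1, fell by 1.39 ± 0.14. Not called were LUX (PCL1) at −0.1 ± 0.11, the blue-light receptor gene FKF1 at −0.73 ± 0.34, and LKP2 and ZTL. The 6 h libraries were therefore high in ELF4, BOA, TOC1 and JMJD5 and low in CCA1, LHY, PRR9, PRR7, PRR5 and GI.

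Evening element letters (AAAATATCT on either strand, within 500 bases before the start) were present in 7 of the 15 afternoon and evening clock promoters and in 1 of the 13 morning ones, the EPR1 promoter. Of the 7 genes, 4 were higher, 1 was lower and 2 were not called. The background was 4.11% of all promoters and 4.44% of those of tested genes. Among genes called higher the share was 4.04% and among genes called lower 5.6%. It was 8.33% among genes at least 4-fold higher (4 of 48) and 8.85% among genes at least 4-fold lower (17 of 192). TOC1, BOA and GRP7 are shown as genes that rose and PRR5 as the gene that fell, with the motif in capitals, printed as AGATATTTT where it lies on the opposite strand.
TOC1, chr5:24674792-24674840, plus strand: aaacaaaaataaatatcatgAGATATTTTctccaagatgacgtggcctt
BOA, chr5:24003825-24003873, plus strand: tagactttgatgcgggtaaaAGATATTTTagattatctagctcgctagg
GRP7, chr2:9266560-9266608, minus strand: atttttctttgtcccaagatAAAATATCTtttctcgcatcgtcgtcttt
PRR5, chr5:8358810-8358858, minus strand: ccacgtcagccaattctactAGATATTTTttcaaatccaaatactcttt
The same letters thus stood before genes that rose and before a gene that fell.

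**Figure D1:**
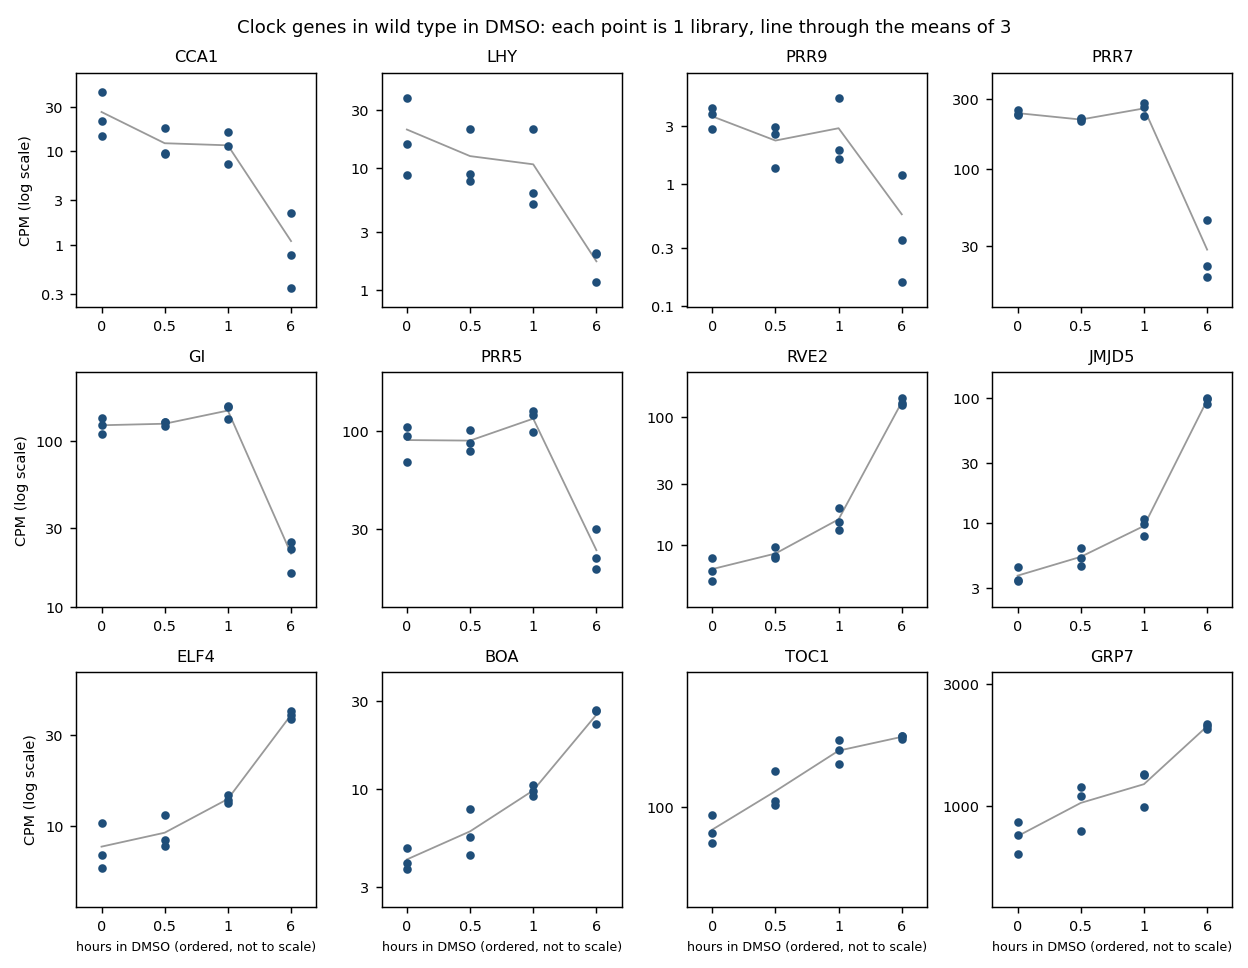
Levels of 12 clock genes in the 12 wild-type DMSO libraries, 1 panel per gene, in CPM on a log axis against hours in DMSO (0, 0.5, 1 and 6 h, ordered and not to scale). Each point is 1 library and the line joins the means of 3; CCA1 falls from 43.3, 14.8 and 21.1 CPM at 0 h to 2.19, 0.347 and 0.776 CPM at 6 h, and ELF4 rises from 6.05, 7.01 and 10.3 to 36.4, 40.0 and 38.0 CPM.

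Of 14 flowering-time genes tested, 7 were lower, 2 were higher and 5 were not called. COL5, a CONSTANS-like factor, fell from 204, 186 and 211 to 29.8, 21.5 and 15.7 CPM (−3.18 ± 0.19, adjusted p = 4.08e-15). CDF3, a repressor of CONSTANS, fell by 2.03 and SOC1 (AGL20), a floral integrator, by 1.68. CO itself (CONSTANS), which activates flowering in long days, rose from 1.1, 1.42 and 2.02 to 6.77, 6.36 and 8.7 CPM (2.24 ± 0.31, adjusted p = 2.69e-07). COL9, another CONSTANS-like gene, rose from 22.4, 28.7 and 30.9 to 112, 107 and 116 CPM (2.02 ± 0.16, adjusted p = 3.84e-12). The groups overlapped for none of COL5, COL9 and CO.

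Among 24 light signalling genes, 6 were higher, 8 lower and 10 not called. The growth-promoting bHLH factor PIF4 fell from 52.4, 47.1 and 48.4 to 10.5, 6.36 and 3.88 CPM (−2.88 ± 0.23, adjusted p = 6.31e-12). PIF5 (PIL6), its relative, fell from 173, 128 and 145 to 31.2, 27.2 and 25.2 CPM (−2.42 ± 0.18, adjusted p = 1.3e-12). The blue-light receptor genes PHOT1 and CRY1 fell by 1.07 ± 0.11 and 0.69 ± 0.08. Rises were seen in SPA3 (1.22 ± 0.16), part of the COP1 complex that degrades light-signalling factors, HY5 (1.02 ± 0.16), a bZIP activator in light, and PIF3 (0.78 ± 0.12). The phytochrome genes PHYA (−0.26 ± 0.15) and PHYB (0.05 ± 0.1) were not called.

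Nuclear genes for the light-harvesting antenna fell nearly throughout. Of 18, 16 were lower, none was higher and 2 were not called, with a median log2 change of −1.64 beside 15.9% of all genes called lower. The summed level of the list was 37130 to 40480 CPM at 0 h and 13780 to 19200 CPM at 6 h. LHCB6, a minor antenna protein of photosystem II, fell from 1590, 1570 and 1390 to 382, 347 and 281 CPM (−2.18 ± 0.13, adjusted p = 1.81e-16). LHCA1, of the photosystem I antenna, fell from 2380, 2140 and 2090 to 801, 672 and 535 CPM (−1.72 ± 0.12, adjusted p = 1.15e-14). For both, every 6 h library was under every 0 h library. In whole seedlings, fewer cells of a type and less RNA per cell cannot be told apart.

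Within the list, LHCB2.1, LHCB2.2, LHCB2.3, CAB2 and LHCB3, all of the major trimeric antenna, had the strongest fitted falls, while other major antenna genes fell less or were not called. LHCB2.1 was at 1160, 1170 and 1050 CPM at 0 h and 88.5, 21.8 and 28.1 CPM at 6 h, a 25.3-fold fall (−4.66 ± 0.35, adjusted p = 3.18e-12), with means of 839 and 707 CPM at 0.5 and 1 h. LHCB2.2 fell by 4.38 ± 0.33, LHCB2.3 by 3.8 ± 0.44 and LHCB3 by 2.75 ± 0.25. At 6 h replicate 1 held the highest level of LHCB2.1, LHCB2.2, LHCB2.3 and LHCB3, as it did of CCA1 and PRR7. CAB2, an LHCB1 copy, fell from 4290, 4150 and 3580 to 662, 265 and 328 CPM (−3.26 ± 0.4). CAB1, the neighbouring LHCB1 copy, was at 7480, 8760 and 7320 CPM at 0 h and 7400, 7360 and 5690 CPM at 6 h, and its change of −0.2 ± 0.09 was not called (adjusted p = 0.0978). The LHCB1 and LHCB2 copies are nearly identical in sequence and reads that matched several places went to no gene, so the split between copies is uncertain. LHCB4.3, the other member not called, had a change of −0.49 ± 0.2 (adjusted p = 0.0673).

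A G-box lay in 4 of the 18 antenna promoters, beside 10.1% of the promoters of tested genes, and none of the 18 held an evening element. All 4 genes were lower, as were 16 of the 18 members, so this does not set the 4 apart. The CCA1 binding site (AAAAATCT on either strand, in 12.3% of promoters of tested genes) lay before LHCA3, LHCA4, CAB2, LHB1B1 and LHCB2.3. The LHCB6 and LHCB2.3 windows are shown as examples from the minor and the major antenna, in the same notation.
LHCB6, chr1:5447979-5448024, minus strand: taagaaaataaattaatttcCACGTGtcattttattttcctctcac
LHCB2.3, chr3:10255798-10255843, plus strand: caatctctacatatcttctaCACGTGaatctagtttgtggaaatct

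**Figure D2:**
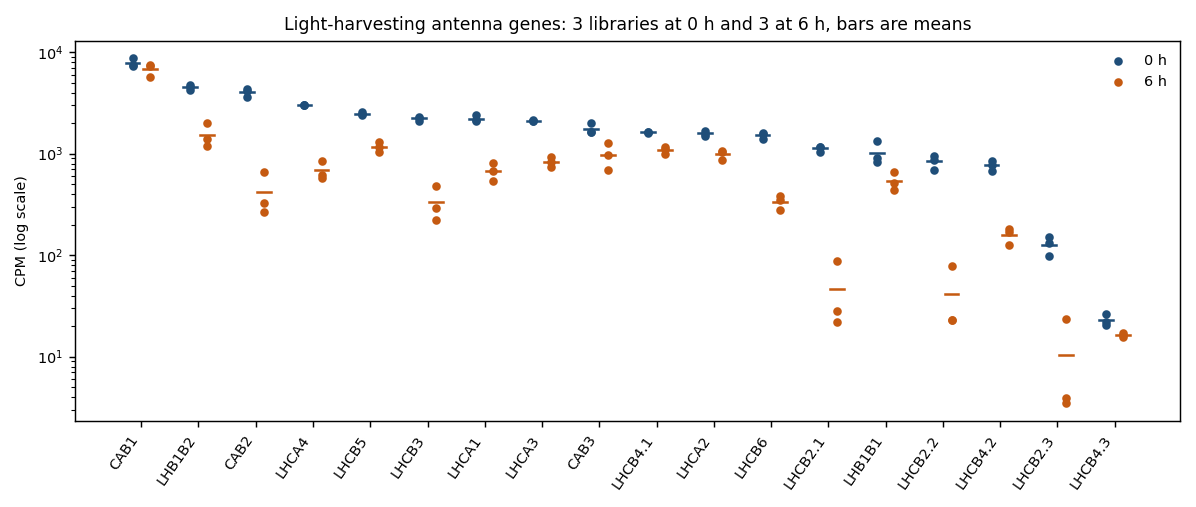
Levels of the 18 antenna genes in the 3 libraries at 0 h and the 3 at 6 h, in CPM on a log axis, with 1 point per library and a bar at each mean. LHCB2.1 falls from 1160, 1170 and 1050 CPM to 88.5, 21.8 and 28.1 CPM, while CAB1 ends at 7400, 7360 and 5690 CPM, within or near its 0 h range.

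Photosystem and electron transport genes of the nucleus fell less. Of 19, 15 were lower, none was higher and 4 were not called, with a median of −0.64. PSAO, a photosystem I subunit, fell from 1160, 1180 and 1190 to 506, 464 and 398 CPM (−1.37 ± 0.08, adjusted p = 6.39e-17), and PSAD-2 by 1.8 ± 0.13. PSBR, PETC, DRT112 (a plastocyanin) and PSBO1 were not called, with changes of −0.01, −0.04, −0.1 and −0.16. Chlorophyll synthesis genes numbered 10 lower, 1 higher and 5 not called of 16. CRD1, an enzyme of the Mg-protoporphyrin branch, fell from 1460, 1320 and 1290 to 488, 464 and 414 CPM (−1.57 ± 0.09, adjusted p = 4.82e-18). CH1 (chlorophyll b synthesis), HEMA1 (the first committed step) and GUN5 (a Mg-chelatase subunit) fell by 2.06, 1.34 and 1.32, and ALB1, another Mg-chelatase subunit, rose by 0.31 ± 0.09.

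Of 15 plastid isoprenoid and carotenoid genes, 8 were lower and 1 was higher. ABA1, the zeaxanthin epoxidase, fell from 261, 209 and 255 to 59.3, 49.1 and 50.0 CPM (−2.2 ± 0.14, adjusted p = 3.51e-16). BETA-OHASE 2, a beta-carotene hydroxylase, was among the strongest falls of all genes, from 13.4, 7.67 and 8.96 to 0.199, 0.116 and 0.311 CPM (−5.51 ± 0.54, adjusted p = 1.88e-10). ELIP2, an early light-inducible protein that protects against excess light, fell from 38.9, 54.3 and 19.5 to 1.99, 1.27 and 2.48 CPM (−4.36 ± 0.66, adjusted p = 3.91e-06). Of 11 Calvin cycle genes, 3 were higher, 1 was lower and 7 were not called. RBCS2B, a Rubisco small subunit, rose by 0.76 ± 0.14 (adjusted p = 4.77e-05) and CP12-2, a regulator of the cycle, by 0.76 ± 0.17 (adjusted p = 0.00084), while Rubisco activase (RCA) fell by 0.57 ± 0.12 (adjusted p = 0.000249).

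Called starch genes lay in both directions, beside shares over all genes of 15.3% higher and 15.9% lower. Of 15 breakdown genes, 4 were higher, 3 lower and 8 not called, counts near those shares for so short a list. CT-BMY, a chloroplast beta-amylase, went from 55.2, 18.9 and 37.4 CPM at 0 h through means of 14.5 CPM at both 0.5 and 1 h to 105, 109 and 127 CPM at 6 h (1.67 ± 0.29, adjusted p = 2.91e-05). Its groups did not overlap, although the 0 h libraries were widely spread. PWD, a dikinase that opens the granule surface, rose by 0.98 ± 0.14, and the phosphatase-like LSF1 fell by 0.97 ± 0.13. Of 11 synthesis genes, 2 were higher, 6 lower and 3 not called (1 higher without 6 h replicate 1), with the granule-bound synthase GBSS1 falling from 20, 15.7 and 17.0 to 4.38, 1.16 and 2.95 CPM (−2.75 ± 0.39, adjusted p = 1.15e-06).

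Sugar starvation genes, which seedlings raise when carbon runs short, ended below their start. Of 25 tested, 11 were lower, 1 was higher and 13 were not called, with a median of −0.56. ASN1, a glutamine-dependent asparagine synthetase known for induction in the dark, was at 92.8, 129 and 128 CPM at 0 h, had a mean of 323 CPM at 1 h, and was at 26.5, 31.1 and 21.7 CPM at 6 h (−2.14 ± 0.43, adjusted p = 0.000257). TPS11, a trehalose-phosphate synthase family member, followed the same course, from 245, 215 and 216 CPM through a mean of 354 to 71.8, 66.0 and 66.9 CPM (−1.72 ± 0.21, adjusted p = 7.8e-08). The hexose transporter gene STP1 went from 422, 435 and 456 CPM through a mean of 771 to 224, 218 and 206 CPM (−1.02 ± 0.16, adjusted p = 2.87e-06). For these 3 genes, the 6 h libraries were the lowest in the course and the 1 h mean was the highest. Summed over the list, the level was 6049 to 6249 CPM at 0 h, 8743 to 9997 at 1 h and 4711 to 4744 at 6 h.

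Nitrogen assimilation genes moved up, with 12 of 26 higher, 3 lower and 11 not called. The dual-affinity nitrate transporter and sensor gene NRT1.1 rose from 87.6, 103 and 91.0 to 202, 214 and 212 CPM (1.15 ± 0.13, adjusted p = 3.83e-09). UPM1, which makes the precursor of the sirohaem of nitrite reductase, rose from 118, 111 and 122 to 309, 308 and 260 CPM (1.32 ± 0.12, adjusted p = 9.53e-12). NIA1 and NIA2, the nitrate reductases, rose by 0.79 ± 0.17 and 0.47 ± 0.13, and ASN2, another asparagine synthetase, by 0.88 ± 0.1. WR3, a partner of high-affinity nitrate transporters, fell by 1.28 ± 0.21.

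Sulfate assimilation went the other way, with 6 of 12 genes lower and none higher. The APS reductase genes APR2 and APR3 fell by 1.34 ± 0.15 and 1.9 ± 0.38, and the sulfite reductase gene SIR by 0.68 ± 0.07. Phosphate starvation genes numbered 2 higher and 1 lower of 16, under the shares of all genes (15.3% higher and 15.9% lower). Iron homeostasis genes numbered 3 higher and 2 lower of 22, also under those shares. The transporter gene OPT3 was up by 0.9 ± 0.15 and the ferritin gene FER1 down by 1.19 ± 0.21. For iron, 5 were higher without 6 h replicate 3 or with the length correction. With the replicate block or with only the compared libraries, 6 were higher. Of 18 low-oxygen genes, 6 were higher and 1 lower. EBP (RAP2.3), an ERF factor of the oxygen-sensing group, rose from 322, 331 and 286 to 802, 907 and 774 CPM (1.4 ± 0.09, adjusted p = 2.16e-16) and FTM1, a stearoyl desaturase, from 35.0, 32.7 and 36.7 to 176, 108 and 170 CPM (adjusted p = 0.00124). The classical fermentation marker ADH1 had a change of 0.78 ± 0.53 that was not called (adjusted p = 0.279).

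Detoxification genes outside the glutathione transferases fell in the absence of any quinone. Of 25, 15 were lower, none was higher and 10 were not called, with a median of −1.34, and their summed level went from 965.4 to 1160 CPM at 0 h to 336.9 to 358.5 CPM at 6 h. CYP81D11 (AT3G28740, chr3:10788698-10790553), a cytochrome P450 known for induction by foreign chemicals, was at 58.1, 27.1 and 47.1 CPM at 0 h, at means of 3.4 and 1.62 CPM at 0.5 and 1 h, and at 0.597, 0.231 and 0.776 CPM at 6 h (−6.4 ± 0.88, adjusted p = 8.39e-07). OPR1, an oxophytodienoate reductase family enzyme, fell from 203, 268 and 188 to 8.36, 6.01 and 8.23 CPM (−4.9 ± 0.51, adjusted p = 5.66e-09). Neither gene's groups overlapped, which the rule that named them required. The 0.5 h mean of CYP81D11 was already under its 0 h range.

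Other members followed. The glucosyltransferase gene UGT75B1 fell from 77.9, 64.1 and 74.5 to 4.38, 6.01 and 6.37 CPM (−3.66 ± 0.46, adjusted p = 1.53e-07), and UGT73C1 by 5.13 ± 0.84. UGT74E2, whose enzyme conjugates indole-butyric acid, held 181 counts over the 0 h libraries and 3 over the 6 h libraries, a ratio of 52.9 (95% counting interval 17.8 to 259, which covers counting error only). The aldo-keto reductase gene ChlAKR fell by 5.32 ± 0.89 and the alkenal reductase gene AER by 2.09 ± 0.24. Of 9 detoxification promoters with a G-box, 7 belonged to genes called lower, where 15 of all 25 members were lower. CYP81D11 is shown as the strongest of the 7.
CYP81D11, chr3:10790733-10790778, minus strand: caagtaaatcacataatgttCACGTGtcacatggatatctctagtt

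Among 30 glutathione transferase genes, which couple glutathione to electrophiles, 11 were lower and 1 higher. The count lower was 7 without 0 h replicate 2 and 7 without 6 h replicate 2. GSTU24 fell from 19.4, 33.4 and 20.5 to 0.995, 1.85 and 2.02 CPM (−3.88 ± 0.68, adjusted p = 3.79e-05) and ERD9 by 2.82 ± 0.34, while GSTF10 rose by 0.56 ± 0.14.

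Touch and early stress genes were highest in sum at 0.5 h and lowest at 6 h. Of 29, 8 were lower at 6 h, none was higher and 21 were not called. With only the compared libraries in the fit, or with DESeq2, 14 were lower. The list summed to 917.7 to 1044 CPM at 0 h, 1654 to 2329 CPM at 0.5 h and 359.3 to 389.9 CPM at 6 h. TCH3, a calmodulin-like protein induced by touch, was at 261, 390 and 258 CPM at 0 h, had a mean of 580 CPM at 0.5 h, and was at 99.5, 94.5 and 95.2 CPM at 6 h (−1.66 ± 0.17, adjusted p = 1.17e-09). TCH2 and the calmodulin gene CAM2 fell by 1.44 ± 0.28 and 0.85 ± 0.1.

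Xyloglucan endotransglucosylase genes, whose enzymes cut and rejoin wall polymers, numbered 12 lower, 1 higher and 13 not called of 26. TCH4 went from 250, 125 and 242 CPM through a mean of 521 at 0.5 h to 3.78, 3.58 and 6.21 CPM at 6 h (−5.51 ± 0.57, adjusted p = 3.76e-09). XTR6 went from 80.1, 30.3 and 80.9 CPM through a mean of 245 to 3.38, 4.16 and 4.81 CPM (−3.9 ± 0.58, adjusted p = 2.83e-06). PHI-1, of a phosphate-responsive family, went from 94.8, 18.0 and 65.9 CPM through a mean of 185 to 0.796, 0.693 and 1.55 CPM (−5.83 ± 0.93, adjusted p = 1.02e-05). In all 3, replicate 2 was the lowest of the 0 h libraries and still lay above every 6 h library. For TCH4 and PHI-1 the rule that named them required this separation. Of 16 expansin genes, 4 were lower and 1 higher, with EXPA8 down by 1.63 ± 0.25 and EXPA10 up by 1.27 ± 0.16. EXPA16, which lay outside that count, rose from 6.42, 6.16 and 5.06 to 31.4, 36.7 and 39.4 CPM (2.61 ± 0.15, adjusted p = 2.21e-17).

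**Figure D3:**
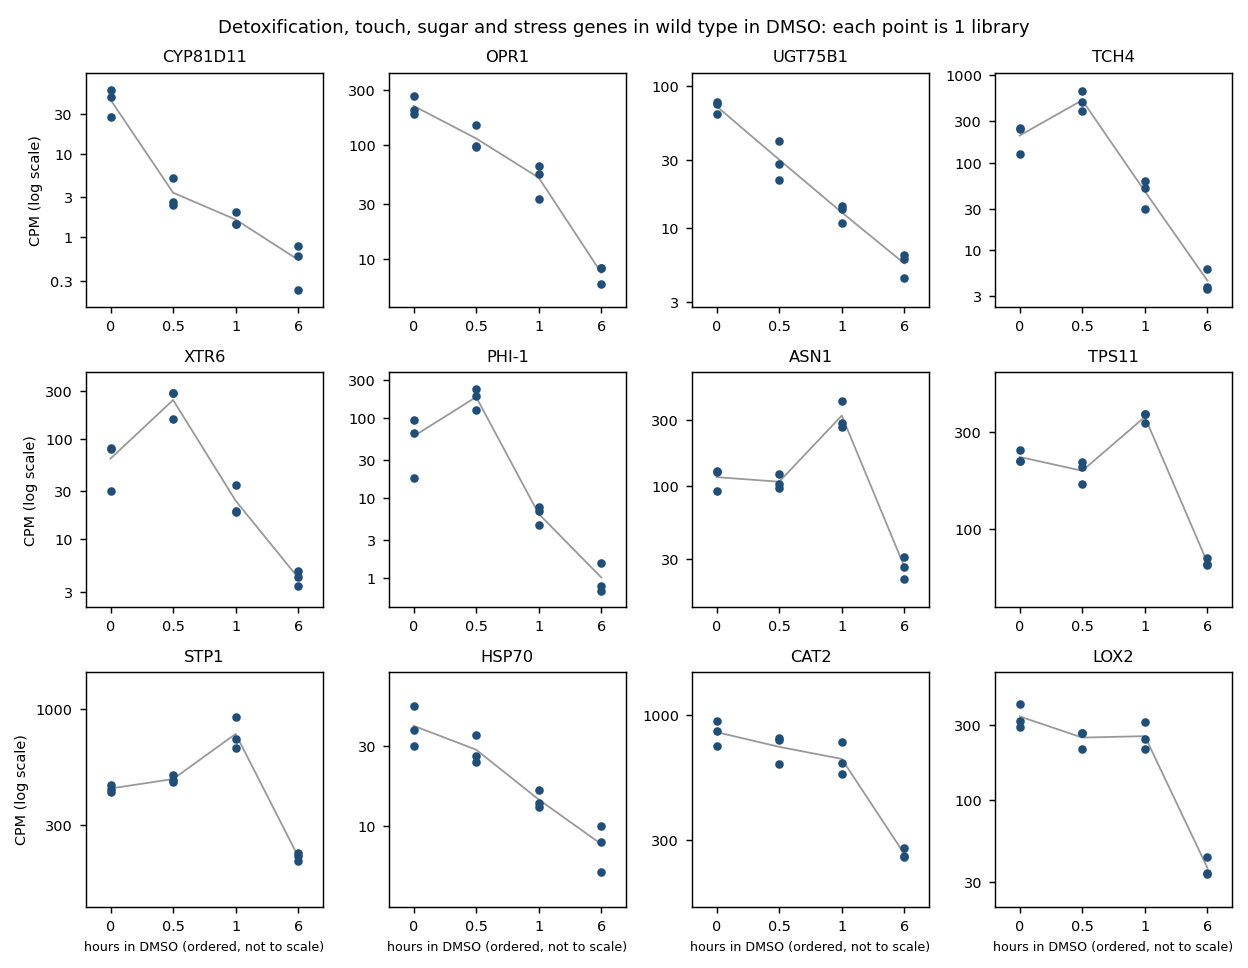
Levels of 12 detoxification, touch, sugar starvation and stress genes in the wild-type DMSO libraries, 1 panel per gene, in CPM on a log axis against hours in DMSO (ordered, not to scale), with 1 point per library and a line through the means of 3. TCH4 reaches a mean of 521 CPM at 0.5 h and 3.78, 3.58 and 6.21 CPM at 6 h, and ASN1 reaches a mean of 323 CPM at 1 h.

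Jasmonate genes numbered 4 lower, 2 higher and 24 not called of 30, and 2 were lower without 6 h replicate 2. Both counts lay under the shares of all genes (15.9% lower and 15.3% higher). The median log2 change of the list was nevertheless −0.371. Its summed level, which includes LOX2, went from 928.2 to 1010 CPM at 0 h to 569.6 to 611.4 CPM at 6 h. LOX2, a chloroplast lipoxygenase of jasmonate synthesis, fell from 291, 406 and 319 to 43.2, 33.4 and 33.9 CPM (−3.22 ± 0.33, adjusted p = 2.63e-09), the allene oxide synthase gene AOS by 0.8 ± 0.17, and the transcription factor gene MYC4 rose by 0.73 ± 0.14. Of 14 salicylic acid genes, 3 were lower, among them the receptor gene NPR3 (−1.04 ± 0.22) and the salicylic acid hydroxylase gene DMR6 (−1.29 ± 0.29). ACD6 (AT4G14400, chr4:8294165-8299195), an ankyrin membrane protein that promotes defence dependent on salicylic acid, had the strongest rise of the named genes. It was at 0.733, 0.284 and 0.578 CPM at 0 h, at means of 0.0886 and 0.0509 CPM at 0.5 and 1 h, and at 30.4, 26.2 and 20 CPM at 6 h, a 51.3-fold rise (5.68 ± 0.4, adjusted p = 1.15e-14).

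Of 20 ethylene genes, 7 were higher and 1 lower. The receptor gene ERS1 rose by 0.7 ± 0.08, EBF2, an F-box gene that limits the response, by 0.92 ± 0.13, and ACO1, an ACC oxidase, by 1.18 ± 0.27, whereas the ACC synthase gene ACS11 fell by 3.66 ± 0.73. Abscisic acid genes numbered 5 higher and 6 lower of 22, with the factor ABI5 up by 1.22 ± 0.25 and the catabolic CYP707A2 down by 1.75 ± 0.41. Auxin genes numbered 4 higher and 8 lower of 32. Only 2 were higher without 0 h replicate 1, 6 h replicate 2 or 6 h replicate 3, and 5 were lower without 0 h replicate 2. DFL1, which conjugates auxin to amino acids, fell by 1.26 ± 0.11 and TAA1, of auxin synthesis, rose by 0.69 ± 0.17. Of 16 gibberellin genes, 4 were lower and 1 higher, with the biosynthetic GA20OX2 down by 1.83 ± 0.33 and GASA6 by 2.08 ± 0.28. Brassinosteroid genes (1 higher and 2 lower of 18) and cytokinin genes (3 and 3 of 17) had shares near or under the background of 15.3% higher and 15.9% lower. RR16, a type-A response regulator in cytokinin signalling, rose from 2.2, 2.65 and 2.31 to 13.9, 15.3 and 11 CPM (2.46 ± 0.39, adjusted p = 5.37e-06).

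Cell cycle genes divided by phase. Of 16 S phase genes, 9 were higher and none was lower, with a median of 0.38, and of 24 mitosis genes, 10 were lower and none was higher, with a median of −0.30. The lower count for mitosis was 6 without 0 h replicate 3 and 6 without 6 h replicate 3. CDT1A, a replication licensing factor, rose from 14.7, 15.5 and 14.2 to 27.5, 21.4 and 27.6 CPM (0.77 ± 0.14, adjusted p = 3.69e-05), MCM2 of the replicative helicase by 0.49 ± 0.11 and the ribonucleotide reductase gene RNR1 by 0.46 ± 0.09. The A-type cyclin gene CYCA2;4 fell from 18.7, 13.8 and 17.2 to 9.75, 8.67 and 11.2 CPM (−0.74 ± 0.12, adjusted p = 8.94e-06) and the mitotic kinase gene AUR1 by 0.49 ± 0.13. Ribosome biogenesis genes numbered 4 higher and none lower of 14, and 2 were higher without 0 h replicate 2 or 6 h replicate 3, with the helicase gene PRH75 up by 0.87 ± 0.1. Aquaporin genes, which encode water channels, numbered 10 lower and 1 higher of 18. PIP2A fell from 592, 545 and 642 to 230, 253 and 248 CPM (−1.28 ± 0.1, adjusted p = 2.19e-13), and PIP2B was higher by 0.34 ± 0.11.

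Secondary metabolism moved in several directions. Aliphatic glucosinolate genes, which make methionine-derived defence compounds, numbered 10 higher and 1 lower of 16 (median 0.52). Their regulator MYB28 rose from 22.9, 20.7 and 26.1 to 45.6, 46.8 and 48 CPM (1.02 ± 0.15, adjusted p = 1.05e-06) and the sulfotransferase gene SOT17 by 1.32 ± 0.21. Indole glucosinolate and camalexin genes numbered 4 higher and 6 lower of 18, with CYP79B3 up by 0.77 ± 0.17 and CYP81F2 down by 1.92 ± 0.43. Phenylpropanoid and lignin genes numbered 8 lower and none higher of 19, with the methyltransferase gene OMT1 down from 387, 441 and 441 to 165, 171 and 183 CPM (−1.29 ± 0.15, adjusted p = 6.72e-09).

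Flavonoid and anthocyanin genes numbered 3 higher and 5 lower of 16, and 3 were lower without 0 h replicate 3. The late anthocyanin gene DFR held 50 counts over the 0 h libraries and 0 over the 6 h libraries, at least 14.6-fold lower against a floor of 3 counts over the group. GSTF12, which helps carry anthocyanins to the vacuole, held 15 and 0 counts, at least 4.39-fold lower. LDOX, the step after DFR, fell by 3.66 ± 0.57 and the repressor gene MYBL2 by 2.03 ± 0.24. The flavonol regulators MYB12 and MYB111 rose by 1.41 ± 0.26 and 1.69 ± 0.41. Lipid and cuticle genes numbered 4 higher and 7 lower of 19, with the desaturase gene FAD3 up by 0.69 ± 0.07 and the wax gene CER3 down by 0.68 ± 0.12.

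Heat shock genes were lower in count but not in sum. Of 18, 11 were lower, 1 was higher and 6 were not called, with a median of −0.83 (the same with genes at 0 set to their bound). HSP70 fell from 51.9, 29.9 and 37.3 to 10.1, 5.32 and 8.07 CPM (−2.37 ± 0.3, adjusted p = 1.16e-07) and HSP90.1 by 1.01 ± 0.17. The small heat shock genes HSP17.4 and HSP23.6-MITO held 46 and 29 counts over the 0 h libraries and 0 over the 6 h libraries, at least 13.5-fold and 8.48-fold lower. The summed level was 2943 to 3026 CPM at 0 h and 2963 to 3280 CPM at 6 h, in which the constitutive chaperone gene HSC70-1, up by 0.18 ± 0.07 (adjusted p = 0.0442), was at 2310, 2330 and 2360 CPM and 2510, 2810 and 2630 CPM.

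Chaperones of the endoplasmic reticulum numbered 9 lower and none higher of 14. Redox and antioxidant genes numbered 4 higher and 6 lower of 19, and 2 were higher without 0 h replicate 2 or 6 h replicate 1. The catalase gene CAT2 fell from 941, 743 and 855 to 258, 255 and 278 CPM (−1.68 ± 0.12, adjusted p = 1.77e-14) and the cytosolic ascorbate peroxidase gene APX1 from 718, 798 and 794 to 248, 261 and 263 CPM (−1.58 ± 0.12, adjusted p = 2.07e-13). VTC2, which controls ascorbate synthesis, rose by 0.97 ± 0.12. The alternative oxidase gene AOX1A fell by 2 ± 0.26 and was the 1 mitochondrial retrograde gene called lower of 9. Cold genes of the CBF group numbered 1 higher and 3 lower of 10, with COR27, which is also clock-regulated, up by 1.74 ± 0.35 and CBF2 at 21 counts over the 0 h libraries and 1 at 6 h (ratio 18.4, 95% counting interval 2.96 to 762). Senescence and autophagy genes numbered 5 higher and 1 lower of 13, and 3 were higher without replicate 1 of either time, with SAG21 up by 1.22 ± 0.18.

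Among the other strongest rises, the germin gene GER3 rose from 135, 147 and 179 to 1020, 911 and 902 CPM (2.62 ± 0.19, adjusted p = 9.25e-13). The molybdate transporter gene MOT1 rose from 3.12, 1.99 and 1.73 to 14.7, 15.7 and 13.5 CPM (2.73 ± 0.28, adjusted p = 3.53e-10). AT4G25580, annotated as a CAP160 protein, rose by 3.05 ± 0.69 and had reached a mean of 10 CPM by 1 h, near its 6 h level of 11.1, 10.7 and 9.94 CPM. AT1G30260, AT4G17098, AT3G60290, AT1G02470 and AT1G58561 rose by 2.49 to 2.74. Among the falls, CIPK20, a kinase that calcium sensors activate, went from 58.9, 36.7 and 58.1 to 4.58, 1.39 and 1.86 CPM (−4.41 ± 0.32, adjusted p = 8.06e-13). AT5G06980 fell by 4.42 and AT4G08555 by 4.41.

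Plastid-encoded genes, given by their ATCG identifiers, rose together against a 0 h group that was itself low and uneven. Of 90 tested, 60 were higher and none was lower, with a median log2 change of 1.05. They held 0.925%, 0.446% and 0.643% of the scaled counts in the 0 h libraries, 1.32 to 1.4% at 0.5 h, 1.62 to 1.83% at 1 h and 1.36, 1.53 and 1.46% at 6 h. ATCG00480 went from 2580, 987 and 2090 to 4330, 5260 and 4870 CPM (1.36 ± 0.21, adjusted p = 5.2e-06) and ATCG00740 from 145, 68.8 and 74.8 to 214, 249 and 230 CPM (1.28 ± 0.19, adjusted p = 2.41e-06). ATCG00220 was at 45.7, 7.01 and 61.7 CPM at 0 h and 190, 165 and 234 CPM at 6 h (2.42 ± 0.51, adjusted p = 0.000393), with 0 h replicate 2 the lowest. With only the compared libraries in the fit, the adjusted p was 0.0602 for ATCG00480 and 0.0745 for ATCG00220. The 60 became 42 to 56 with 1 library left out. The libraries were made with an mRNA kit, and how evenly it captured plastid transcripts was not tested. The plastid values are therefore shares of the sequenced counts.

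In the other arms called falls of plastid genes outnumbered called rises. In card1 in DMSO, 2 were higher and 21 lower (median −0.31), and in the wild type with DMBQ, 8 were higher and 31 lower (median −0.45). Their summed share nevertheless went up without overlap in the wild type with DMBQ, from 1.09, 1.16 and 1.18% at 0 h to 1.65, 1.53 and 1.5% at 6 h, and ATCG00220 was among the genes called higher there (1.28 ± 0.46, adjusted p = 0.0334). In card1 the share was 1.48, 1.31 and 1.23% at 0 h and 1.41, 1.33 and 1.18% at 6 h. The difference between genotypes was called for 31 of the 90 and that between agents for 32. With 1 library left out these counts ran from 11 (wild-type DMSO 0 h replicate 2) to 46 (card1 0 h replicate 3) and from 11 (wild-type DMSO 0 h replicate 3 and DMBQ 6 h replicate 3) to 34, and with only the compared libraries in the fit they were 5 and 42. At 0 h the wild-type DMBQ libraries and the DMSO libraries differed in 25 of 19839 genes (0.126%), and all 25 were plastid genes, higher in the DMBQ libraries. With the replicate number as a block, 46 genes were called, 43 of them plastid. Without the block, none was called without wild-type DMSO 0 h replicate 2 or without replicate 3, 9 were called without either of DMBQ 0 h replicates 1 and 2, and 2 without replicate 3. The 0 h shares of the wild-type DMSO arm lay below those of both other arms, and the part of this low start in its plastid change was not tested.

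Root markers numbered 1 higher and 1 lower of 19, with a summed level of 2517 to 2795 CPM at 0 h and 2136 to 2626 CPM at 6 h. Shoot and meristem markers numbered 8 higher and none lower of 16 (515.5 to 540.9 CPM at 0 h and 554.6 to 587.4 at 6 h), and the count fell to 2 without 0 h replicate 3 and 2 without 6 h replicate 3, and to 5, 4 and 3 without 0 h replicate 1, 0 h replicate 2 and 6 h replicate 2. AS1, a leaf patterning factor, rose from 34.8, 30.9 and 32.2 to 50.5, 61.2 and 56.7 CPM (0.8 ± 0.1, adjusted p = 3.87e-08). Of 10 seed markers and 2 flower and pollen markers that passed the filter, none was called, and the seed markers summed to 5.684 to 22.64 CPM at 0 h and 2.785 to 67.95 CPM at 6 h. The part of organ shares in the changes above was not tested.

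**Figure D4:**
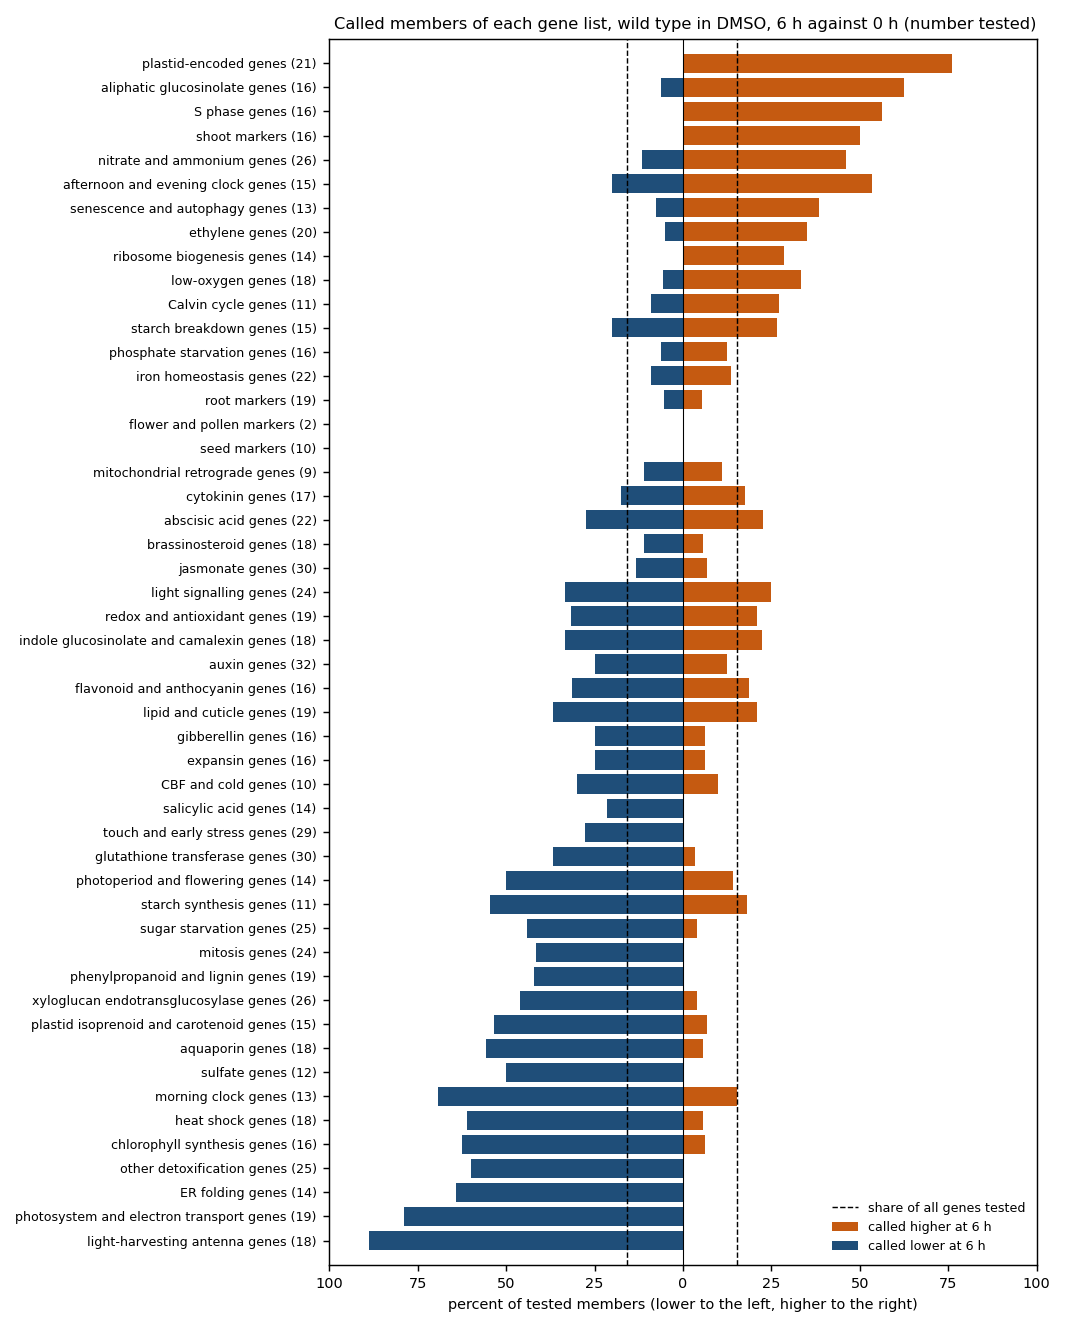
Percent of tested members of each gene list called higher (bars to the right) and lower (bars to the left) at 6 h against 0 h in wild-type DMSO seedlings, with dashed lines at the shares of all genes tested (15.3% higher and 15.9% lower). The antenna list has 16 of 18 members lower, and the aliphatic glucosinolate list has 10 of 16 higher.

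The same interval was measured in libraries that share no sample with these. In card1 in DMSO, 8251 genes (41.6%) were called, 4056 higher (20.4%) and 4195 lower (21.1%). Of the 3032 genes higher in the wild type, 2066 were also higher in card1, which is 68.1% of the wild-type list and 50.9% of the card1 list, and 20 were lower. Of the 3160 lower genes, 2334 were also lower (73.9% and 55.6%), and 14 were higher. Among genes at least 2-fold lower in the wild type the shared part was 578 of 657 (88.0%), and among those at least 2-fold higher 308 of 473 (65.1%). Only 426 of the 473 had an annotated nuclear promoter, against all 657 of the lower genes. Plastid genes, of any size of change, were called higher for 60 in the wild type and for 2 in card1, where 21 were lower. The part of plastid genes in the gap between the shared parts was not tested. Across the 19839 genes, the changes in the 2 genotypes had a Pearson correlation of 0.77 and a Spearman correlation of 0.704, a description over genes that are not independent.

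In the wild type with DMBQ, 6420 genes (32.4%) were called, 3087 higher (15.6%) and 3333 lower (16.8%). The shared part was 2033 of the higher genes (67.1% of the DMSO list, 65.9% of the DMBQ list) and 2180 of the lower genes (69.0% and 65.4%). Of the 15 strongest rises named, 14 were called higher in card1 (all but ATCG00220) and 15 with DMBQ, and all 15 strongest falls were called lower in both. CCA1 changed by −4.06 in card1 and −4.63 with DMBQ, LHCB2.1 by −4.92 and −4.82, and JMJD5 by 4.48 and 4.84. The antenna list was lower in 18 of 18 members in card1 and in 16 of 18 with DMBQ.

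Where the courses differed was tested directly. The genotypes differed in 239 genes (1.2%), 128 (0.645%) with a more positive change in the wild type and 111 (0.56%) with a more positive change in card1. Plastid genes made up 31 of these 128 and 0 of the 111. The 239 rested on single libraries: 39 were called without card1 0 h replicate 1, 61 without wild-type 0 h replicate 2 and 2136 without card1 0 h replicate 3, and the other libraries left out in turn gave 83 to 263. RVE2 rose by 2.9 in card1, which was 1.48 less than in the wild type (adjusted p = 0.00659). The differences moved with transcript length across genes (Spearman −0.3672, with 0.1228 for the wild-type change and 0.3492 for card1), and a fit corrected for length called 152. Card1 0 h replicates 1 and 2 stood apart from replicate 3 in this respect. The Spearman correlation between transcript length and log2 level, each gene centred on its mean over the 48 libraries, was −0.5118 and −0.4944 against 0.0816 in replicate 3. Elsewhere in the series, the wild-type DMBQ libraries at 0.5 h had −0.4086, −0.3893 and −0.4298. Within card1 at 0 h, chi-square values were also compared. Card1 0 h replicate 3 differed from replicates 1 and 2 by a chi-square of 15.1 and 15.6 per degree of freedom, beside 5.05 between replicates 1 and 2. The agents differed in 107 genes (0.539%), 71 (0.358%) with a more positive change with DMBQ and 36 (0.181%) with a more positive change in DMSO. Plastid genes made up 32 of these 36 and 0 of the 71, beside the low plastid share of the wild-type DMSO libraries at 0 h. Leaving out wild-type DMSO 0 h replicate 3 gave 61 genes, leaving out DMSO 6 h replicate 2 gave 65 and leaving out DMBQ 6 h replicate 3 gave 60. AT2G43120, a cupin family gene, changed by −0.81 ± 0.26 in DMSO and by 6.22 with DMBQ, and its DMSO change was not called without replicate 2 of either time. OPR1, which fell by 4.9 in DMSO, fell by 1.95 with DMBQ (difference 2.95, adjusted p = 0.0219). The detoxification list, lower in 15 members and higher in none in DMSO, was lower in 11 and higher in 5 with DMBQ, and 4 of its 25 members differed between agents.

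**Figure D5:**
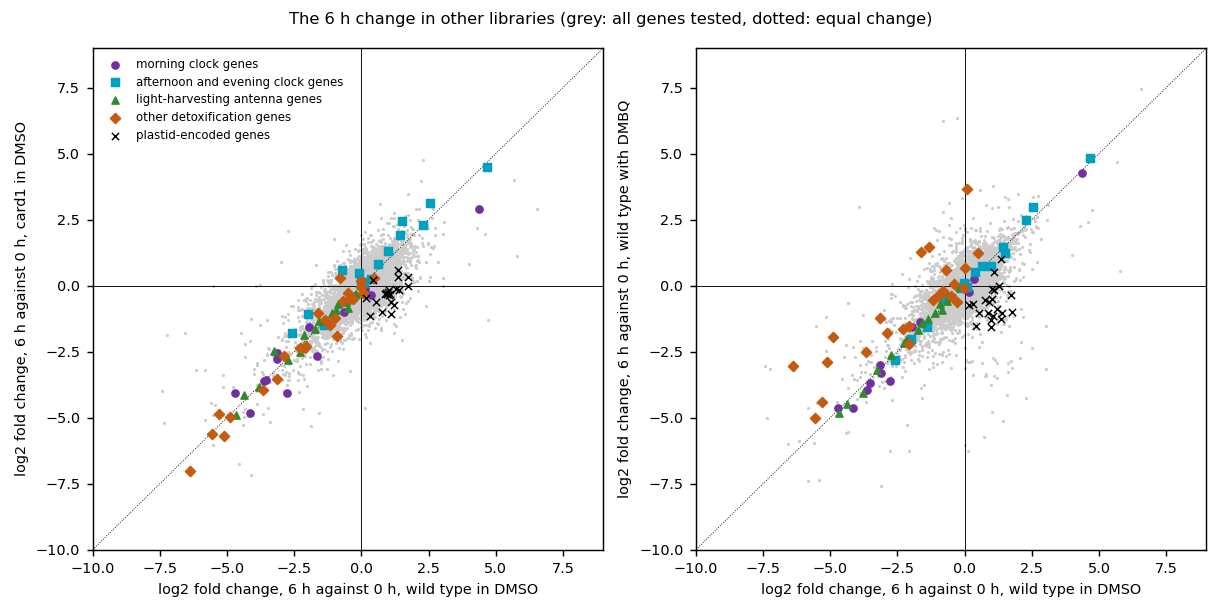
Log2 fold change from 0 to 6 h in wild-type DMSO seedlings (x axes) against the same change in card1 in DMSO and in the wild type with DMBQ (y axes), 1 grey point per gene for 19839 genes, a dotted line of equal change, and coloured markers for 5 gene lists. The Pearson correlation is 0.77 with card1 and 0.729 with DMBQ, and the 21 listed plastid-encoded genes of the 90 tested, with a median of 1.03 in the wild type in DMSO, have medians of −0.304 and −0.727 in the other panels.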

How the data were processed

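Messenger RNA was sequenced from whole seedlings, with RNA from a Qiagen RNeasy kit, KAPA mRNA HyperPrep libraries and a NextSeq500, per the labels' protocols. The authors deposited 1 table of raw read counts per gene, not normalized, with a column for each of the 48 libraries. The submitters' processing notes name HISAT2 2.1.0, HTSeq 0.6.1 and TAIR10. Annotation version, strand setting and any trimming of reads were not given in the sources used, which leaves antisense, overlapping or nearly identical genes with uncertain counts. Of 33602 genes, 32835 (97.7%) had an entry in RefSeq's TAIR10.1 annotation, which gave symbols, coordinates and promoters of 500 bases before the gene start. The 5 entries naming no gene took 13.6 to 16.6% of reads in the compared libraries, most of them reads placed more than once (7.41 to 9.54%), and were left out.

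Tests used edgeR 4.0.16 in R 4.3.3. The filter filterByExpr with a minimum count of 10 kept 19839 genes, TMM factors were 1.007 to 1.088 in the compared libraries, and 1 robust quasi-likelihood model with a mean for each of the 16 groups was fitted to all 48 libraries. Contrasts took 6 h against 0 h in the wild type in DMSO, in card1 in DMSO and in the wild type with DMBQ, the differences of these changes, and DMBQ against DMSO at 0 h. Adjustment of p-values followed Benjamini and Hochberg, over the genes tested in each contrast. The fit was also run on counts simulated from its own means and dispersions. These held no length trend and no shared deviations between libraries, so the run cannot speak to such features of the data. Replicate pairs of the compared groups differed beyond the noise of sampling (2.07 to 5.46 for chi-square over its degrees of freedom), so none was a copy. Replicate numbers were taken to pair libraries where every same-numbered pair's deviations from the group means correlated above 0.1, which held for DMSO and DMBQ at 0 h in the wild type (0.1644, 0.1677 and 0.2042) and not for 0 and 6 h in DMSO.

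The comparison and the 50 gene lists (978 genes, 895 tested) were chosen with earlier results of these data known, and the lists came from textbook knowledge. Of their entries, 932 had a name found in the annotation, and 46 did not and are given by identifier unless the annotation names them elsewhere. Named genes were the 15 largest called rises and 15 largest called falls with a mean of at least 2 CPM over the 6 libraries and no overlap between groups, the 5 smallest adjusted p-values of each difference, CARD1, and the 4 members of each list with the smallest adjusted p. Other list members, and the antenna promoters shown, were named for their role after their values were seen, and the effect of the alternatives was followed for the 218 genes of the rule. Alternatives were RLE size factors, no filter, a replicate block, a correction for transcript length, both, only the compared libraries, DESeq2 1.42.0, a 2-fold threshold, and leaving out each library. Intervals and floors cover counting error only. The libraries at 0.5 and 1 h share the 0 h controls and are given as levels only.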

Additional observations from a re-analysis of the deposited data

Results flagged for a closer look

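The results below were set apart because the change from 0 to 6 h differed between genotypes or between agents by the test of the difference itself (edgeR's quasi-likelihood test, Benjamini-Hochberg adjusted over 19839 genes). For each gene the wild-type DMSO change rests on 3 libraries at each time.

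Between genotypes in DMSO, given as wild type minus card1 on the log2 scale, the clock gene RVE2 differed by 1.48 (adjusted p = 0.00659). AT1G44000, a STAY-GREEN-like gene, differed by 0.86, AT2G35830 by 0.76, the plastid starch phosphorylase gene PHS1 by −0.87, the fatty acid desaturase gene FADA by 1.26 and the one-helix protein gene OHP by 0.98, each with an adjusted p of 0.000717. FADA had a change of −0.12 ± 0.14 in the wild type and −1.38 in card1, and OHP fell by 0.88 and by 1.86. PHS1 had a change of −0.21 ± 0.1 in the wild type, not called, and 0.65 in card1. Of starch breakdown genes, PWD differed by −0.92 (adjusted p = 0.0123) and DPE2 by −0.54 (adjusted p = 0.0264). The Rubisco small subunit gene RBCS1B differed by 1.01 (adjusted p = 0.0269), and VTC2 by 0.68 (adjusted p = 0.031). Of heat shock genes, HSP90.1 differed by −0.98 (adjusted p = 0.0252) and AT5G48570 by −1.54 (adjusted p = 0.00192). Across genes these genotype differences moved with transcript length (Spearman −0.3672). The 239 genes called became 152 with the length correction, 11 with only the compared libraries and 39 to 2136 with 1 library left out. The part of length and of single libraries in the differences of the genes named here was not tested.

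Among plastid genes, the genotype difference was 3.21 for ATCG00220 (adjusted p = 0.0173), 1.43 for ATCG00740 (adjusted p = 0.00508), 1.37 for ATCG00670 (adjusted p = 0.00508) and 1.7 for ATCG01130 (adjusted p = 0.00641). Between agents, ATCG00740 differed by −1.31 (adjusted p = 0.0077) and ATCG00670 by −1.15 (adjusted p = 0.0194), given as DMBQ minus DMSO. The 0 h wild-type DMSO libraries were the lowest of the groups compared in their plastid share.

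Between agents in the wild type, DMBQ minus DMSO, AT2G43120 (a cupin) differed by 7.03 (adjusted p = 1.9e-19), the glycosyltransferase gene GT72B1 by 3.59 (adjusted p = 3e-12), the channel gene NIP1;2 by 2.38 (adjusted p = 7.17e-11), AT1G30700 (a berberine-family oxidase) by 3.31 (adjusted p = 1.82e-10) and AT1G17860 (a protease inhibitor) by 3.03 (adjusted p = 9.23e-10). OPR1 differed by 2.95 (adjusted p = 0.0219) and the phosphate transporter gene PHT1;1 by 0.9 (adjusted p = 0.0188). In DMSO alone GT72B1 and NIP1;2 had changes of 0.07 ± 0.19 and −0.34 ± 0.16 that were not called.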

How the results depend on the processing

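The count of 6192 genes was 6194 with RLE factors, 5782 without a filter, 6324 with a length correction, 6368 with only the compared libraries, 5844 with DESeq2 and 4901 to 5445 with 1 library left out, and no called gene changed sign. At least 2-fold changes numbered 1130 here, 1375 in card1, 1319 with DMBQ and 58 for the genotype difference. Same-numbered wild-type DMSO libraries at 0 and 6 h deviated together weakly (correlations 0.0814, 0.1216 and 0.0827, each the highest of its row). Differently numbered ones had correlations of −0.0619 to −0.0233. Not every same-numbered pair passed the cutoff of 0.1, so the main fit did not pair them. Whether they were paired in the experiment is not settled by these values. With a replicate block 6618 genes were called, and 6724 with block and length correction. The card1 count of 8251 was 4875 with only the compared libraries and 6574 to 8803 with 1 library left out, and the DMBQ count 5111 to 5647. The genotype difference of 239 genes was 417 with the block, 152 with the length correction, 11 with only the compared libraries, 432 with DESeq2 and 39 to 2136 with 1 library left out (39 without card1 0 h replicate 1, 61 without wild-type 0 h replicate 2, 2136 without card1 0 h replicate 3). Its share more positive in the wild type went from 53.6% to 43.8% with DESeq2, 64.5% with the length correction and 90.9% with only the compared libraries. The agent difference of 107 was 161 with the block, 180 with only the compared libraries and 60 to 104 with 1 library left out. The 25 genes at 0 h became 46 with the block, 44 with block and length correction, 46 with only the compared libraries, 52 with DESeq2 and 0 to 24 with 1 library left out. With 1 library left out, 3 genes that were not called changed sign: FADA ranged from −0.28 to 0.03 (0.03 without 0 h replicate 1), GT72B1 (AT4G01070) from −0.07 to 0.18 (−0.07 without 0 h replicate 2) and CARD1 (AT5G49760) from −0.11 to 0.06 (0.06 without 6 h replicate 2, 0.0 without 0 h replicate 1). Of the 218 named genes, 0 to 14 lost their call per setting. The cause of these moves was not tested. Depth limits statements on genes with few counts.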
